A study of Mus musculus with 8 samples.

Results

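Nodal, Lefty and activin signalling was read here through 10 genes of mouse embryonic stem (ES) cells. They were the ligand genes Nodal and Gdf3, the antagonist genes Lefty1 and Lefty2, the receptor genes Acvr1b and Acvr2b, and the Smad genes Smad2, Smad3, Smad4 and Smad7. A gene was represented by every probe set of the array annotated to it alone, which gave 20 probe sets out of 28898, and by 1 leading probe set in the test of 17098 genes. The leading probe set was the one with the highest mean over all 8 arrays, so the probe sets were chosen by their mean level, which is given as a description only. The genes were named with earlier results of these arrays known, in which Nodal, Lefty1 and Lefty2 were higher with cisplatin, so the direction of those 3 genes is no independent evidence.

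The 4 treated samples had received 2.5 µM cisplatin, a platinum drug that crosslinks DNA, for 8 h. The 4 control samples had received the solvent dimethyl sulfoxide (DMSO) in equal volume and for the same time. Both groups were cells of strain C57BL/6 that the labels call deficient in HPRT, at passages 19 to 22, taken from feeder-coated to gelatin-coated plates before the experiment. In each group the replicates are numbered 3 to 6. Whether they were grown as separate cultures is not stated, so a p-value here covers the spread among these 8 samples, and that spread may be technical.

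Nodal and the activins are secreted signals of the TGF-beta family. They bind type II receptors such as Acvr2b, which switch on type I receptors such as Acvr1b, and the activated type I receptor phosphorylates Smad2 and Smad3. These join Smad4 and, in the nucleus with partners such as Foxh1, switch on target genes. Nodal, Lefty1 and Lefty2 are themselves targets of the pathway, and the Lefty proteins block Nodal outside the cell, so the signal feeds both its own increase and its own restraint. Smad7 is an inhibitory Smad that is induced by the pathway. In mouse ES cells the pathway is active at a modest level, and in the embryo it directs mesoderm and endoderm formation and left-right asymmetry.

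The arrays resembled each other closely. Over the genes tested, arrays within a group correlated at 0.997 to 0.998 and arrays of different groups at 0.992 to 0.995, and the 4 arrays per group limit the precision. Nonspecific control probes, which have 24 G or C among 25 bases, lay at 3.10 on the log2 scale and served as background. The 12 ES cell markers all lay above it. Hprt averaged 4.84 ± 0.16 (SD, n = 4) in cisplatin-treated and 4.60 ± 0.37 in control cells, above background in both, and the part of the gene that is affected is not given in the sources used here. These are bulk RNA samples, in which fewer cells of a type and less RNA per cell cannot be told apart.

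With cisplatin the ligand Nodal and both Lefty genes were higher, Smad4 was slightly lower, and the other 6 genes did not pass the test (limma, Benjamini-Hochberg adjusted p under 0.05 over all 17098 genes). Called members thus numbered 4 of 10, against 19.3% of all genes tested in either direction. The 3 higher members stand beside 11.6% of all genes and the 1 lower member beside 7.69%. Among the 11487 genes whose mean was above background, as it was for all 10 members, 27.6% were called, 16.6% as higher and 11% as lower. The 2 groups did not overlap for 5 of the 10 members, against 24.3% of all genes. Because the members were chosen with results known, nothing is read from these shares. The median log2 fold change was 0.09 over the members and 0.01 over all genes.

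**Figure D1:**
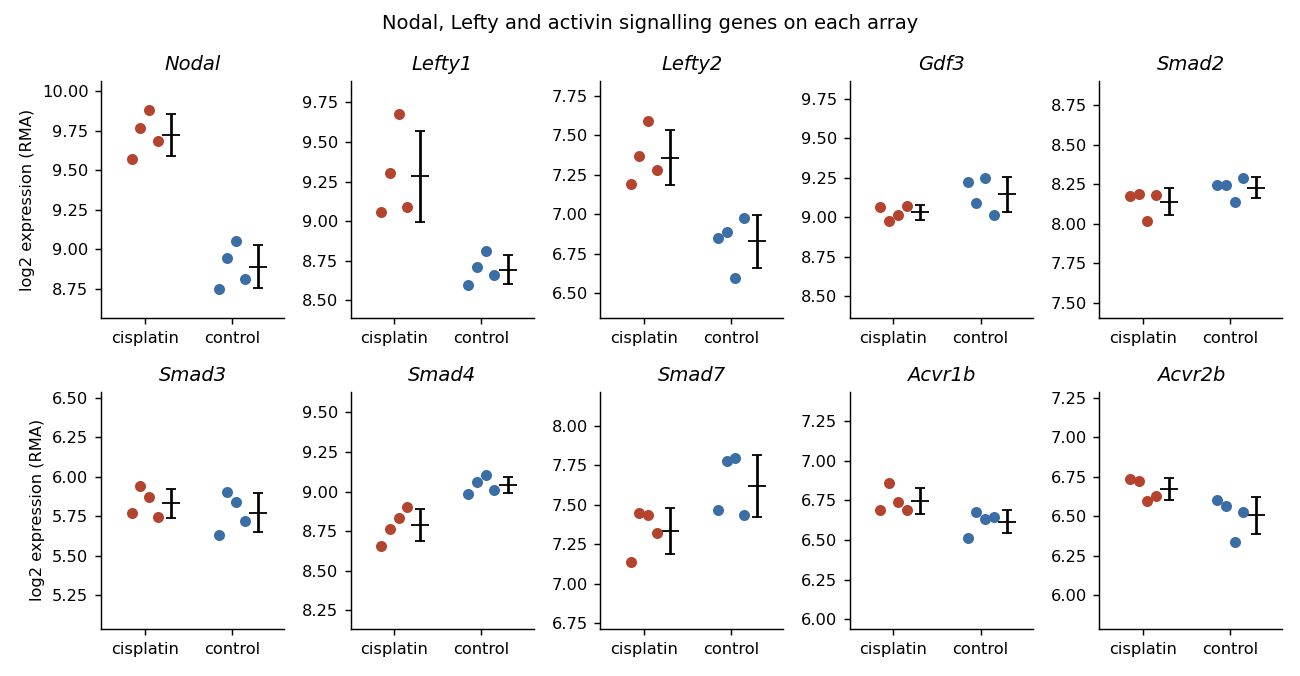
Log2 expression of the 10 genes on each array, with cisplatin on the left and control on the right of each panel; points are arrays, and the bar beside them is the mean ± SD (n = 4). Every panel spans the same 1.5 log2 units. The cisplatin arrays of Nodal lie between 9.57 and 9.88, all above the control arrays at 8.75 to 9.05.

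Nodal, the ligand that gives the pathway its name, showed the largest change of the 10 genes. Its leading probe set read 9.57, 9.76, 9.88 and 9.68 on the log2 scale in cisplatin replicates 3 to 6, against 8.75, 8.94, 9.05 and 8.81 in control replicates 3 to 6. The lowest treated array was above the highest control array. The log2 fold change was 0.84 ± 0.09 (SE), or 1.78-fold higher, with a 95% confidence interval from 0.64 to 1.03 and an adjusted p of 0.000155 (limma). Of all 17098 genes, 1.38% had a log2 fold change at least as large.

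A second probe set of Nodal lay lower, at 8.30 ± 0.15 with cisplatin and 7.46 ± 0.11 in the controls (SD, n = 4). Its log2 fold change was again 0.84 ± 0.09 (SE), with an adjusted p of 0.000140 over all 28898 probe sets, of which 16.3% passed (limma). Both probe sets read the same RNA on the same arrays, so the second is a repeat of the measurement and not of the experiment.

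The promoter of Nodal is shown because this gene changed most and sequence was at hand for it. RefSeq's table for GRCm38.p6 gave the window before the transcript start for 4 of the 10 members, Nodal, Smad3, Acvr1b and Acvr2b. The 250 bases before the Nodal start, chr10:61417722-61417971 on the + strand, read 5′ to 3′ as follows, with capitals for the only motif match found.

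Nodal: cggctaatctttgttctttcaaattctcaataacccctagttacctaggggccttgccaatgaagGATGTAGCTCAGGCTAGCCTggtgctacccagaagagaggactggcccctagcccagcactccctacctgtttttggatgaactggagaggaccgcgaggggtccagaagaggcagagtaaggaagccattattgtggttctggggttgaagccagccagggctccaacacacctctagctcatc

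Each window was searched on both strands for CAGAC, a Smad-binding sequence, for TGTNNATT, a forkhead sequence of the kind bound by Foxh1, and for the p53 response element. The element was taken as 2 half-sites of 10 letters, up to 13 bases apart, with at most 2 mismatches in all. The capitals in the Nodal window mark a match to that element from 185 to 166 bases before the start. Its half-sites adjoin without a spacer, the first matching 8 of 10 letters and the second all 10. Both mismatches thus lie in the first half-site, where G stands in place of the C of the central CWWG (W is A or T). Such a match was present in 8.45% of the 32851 windows in the table. No CAGAC and no TGTNNATT lay in the Nodal window, where 42.2% and 10.9% of all windows held them. Sequence outside the windows was not searched, so a missing motif does not show that a gene lacks it elsewhere. Of the other 3 members' windows, that of Acvr2b held 1 CAGAC, and those of Smad3 and Acvr1b held none of the 3 motifs. A match describes letters only and does not show that a factor binds there.

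Lefty1 and Lefty2 encode the secreted antagonists of Nodal, and both genes lie on chromosome 1. Lefty1 read 9.06, 9.31, 9.68 and 9.09 in cisplatin replicates 3 to 6, against 8.59, 8.71, 8.81 and 8.66 in the control replicates. The groups did not overlap, and the treated arrays spread more widely, with replicate 5 highest. Lefty1 changed by 0.59 ± 0.13 on the log2 scale (SE; 95% interval 0.31 to 0.87), with an adjusted p of 0.00876 (limma).

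Lefty2 read 7.19, 7.37, 7.59 and 7.28 in cisplatin replicates 3 to 6, against 6.85, 6.89, 6.59 and 6.98 in the control replicates. Here too every treated array lay above every control array. Lefty2 changed by 0.53 ± 0.10 on the log2 scale (SE; 95% interval 0.30 to 0.76), with an adjusted p of 0.00536 (limma). The 2 genes are close relatives, and each was read by 1 probe set annotated to it alone; whether one transcript binds the other's probes was not tested. In control replicate 5 Lefty1 had its highest and Lefty2 its lowest control value.

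Deviations from the group mean correlated at 0.117 to 0.293 between arrays of the same replicate number, and at -0.246 to 0.117 between other arrays. That likeness is weak, although every same-number value lay above every other value (lowest 0.117272, against a highest of 0.117258). The sources do not state that samples of the same number were prepared together. The change by number is therefore given as a description. For Nodal the cisplatin array exceeded the control array of the same number by 0.82, 0.82, 0.83 and 0.87 for numbers 3 to 6. These differences were nearly equal. For Lefty1 they were 0.46, 0.60, 0.86 and 0.43, and for Lefty2 0.34, 0.48, 1.00 and 0.31, so the increase was present at every number and largest at number 5. Among the treated arrays all 3 genes had the same order, with replicate 5 highest, then 4, 6 and 3. The control arrays had that order for Nodal and Lefty1, whereas for Lefty2 it was 6, 4, 3 and 5. With the replicate number as a block in limma the standard error of Nodal's change was 0.05 and its adjusted p 0.000337, and Lefty1 and Lefty2 passed at 0.00525 and 0.0267. For Lefty2 the standard error was 0.12 with the block and 0.10 without it.

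**Figure D2:**
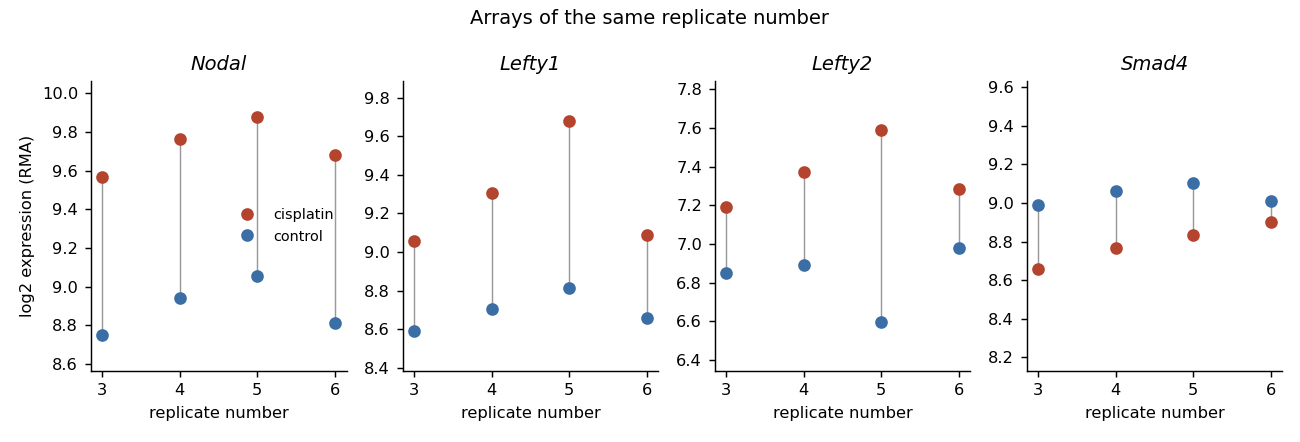
Log2 expression of Nodal, Lefty1, Lefty2 and Smad4 by replicate number, with cisplatin arrays in red and control arrays in blue, joined by a line where the number is the same. The lines of Nodal are of nearly equal length, 0.82 to 0.87, those of Lefty2 run from 0.31 to 1.00, and for Smad4 the cisplatin array is the lower at every number.

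The other ligand gene among the 10, Gdf3, encodes a relative of Nodal that is expressed in pluripotent cells. It read 9.06, 8.97, 9.02 and 9.07 in cisplatin replicates 3 to 6, against 9.22, 9.09, 9.25 and 9.01 in the control replicates. The groups overlapped. The log2 fold change was -0.11 ± 0.06 (SE; 95% interval -0.26 to 0.03; limma adjusted p = 0.273), so an increase like Nodal's lies outside the interval. Its other probe set was at -0.18 ± 0.10.

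The receptor genes did not pass. Acvr1b, which encodes the type I receptor of activin and Nodal, read 6.69, 6.86, 6.74 and 6.69 in cisplatin replicates 3 to 6, against 6.51, 6.68, 6.63 and 6.65 in the controls. The treated arrays all lay above the control arrays, but by little. The log2 fold change was 0.13 ± 0.06 (SE; 95% interval -0.01 to 0.27; limma adjusted p = 0.194).

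Acvr2b, which encodes a type II receptor, read 6.74, 6.72, 6.60 and 6.63 in cisplatin replicates 3 to 6, against 6.60, 6.56, 6.34 and 6.52 in the controls. Only the lowest treated array fell within the range of the controls, just under their highest. The log2 fold change was 0.17 ± 0.07 (SE; 95% interval 0.01 to 0.32), with an adjusted p of 0.133 (limma). Its second probe set above background gave 0.03 ± 0.08, and a further probe set each of Acvr1b and Acvr2b lay below background.

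Smad4, the partner shared by all signalling Smads, was the one member that fell. Its leading probe set read 8.66, 8.76, 8.83 and 8.90 in cisplatin replicates 3 to 6, against 8.99, 9.06, 9.11 and 9.01 in the controls. All treated arrays lay below all control arrays. Smad4 fell by 0.25 ± 0.06 (SE) on the log2 scale, or 1.19-fold, with a 95% interval from -0.39 to -0.11 and an adjusted p of 0.0200 (limma). The call was lost without cisplatin replicate 4, control replicate 4 or control replicate 5, at adjusted p-values of 0.0512, 0.0521 and 0.0583. The other probe sets of Smad4 were at -0.18 ± 0.06 and -0.14 ± 0.06, also without overlap of the groups, but did not pass over all probe sets (limma adjusted p = 0.0646 and 0.186).

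Smad7, the inhibitory Smad, read 7.14, 7.45, 7.43 and 7.32 in cisplatin replicates 3 to 6, against 7.47, 7.78, 7.79 and 7.44 in the controls. The groups overlapped by a narrow margin. Smad7 was at -0.28 ± 0.10 on the log2 scale (SE; 95% interval -0.52 to -0.05), with an adjusted p of 0.0889 (limma). With the replicate number as a block the same change passed, at an adjusted p of 0.0217, and the cisplatin array was the lower one at each of the 4 numbers, by 0.11 to 0.36 on the log2 scale. Lefty1 and Lefty2, which like Smad7 are known targets of the pathway, had changes of opposite sign to it.

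Smad2 and Smad3 encode the Smads that the type I receptor phosphorylates. Smad2 read 8.18, 8.19, 8.02 and 8.18 in cisplatin replicates 3 to 6, against 8.24, 8.24, 8.14 and 8.29 in the controls, a log2 fold change of -0.09 ± 0.06 (SE; limma adjusted p = 0.377). Smad3 read 5.77, 5.94, 5.87 and 5.74 in cisplatin replicates 3 to 6, against 5.63, 5.90, 5.84 and 5.72 in the controls, at 0.06 ± 0.07 (limma adjusted p = 0.667). The groups overlapped for both. The 95% intervals ran from -0.22 to 0.05 for Smad2 and from -0.11 to 0.22 for Smad3. The other probe set of Smad2 gave -0.11 ± 0.07, and the other 2 of Smad3 lay below background.

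**Figure D3:**
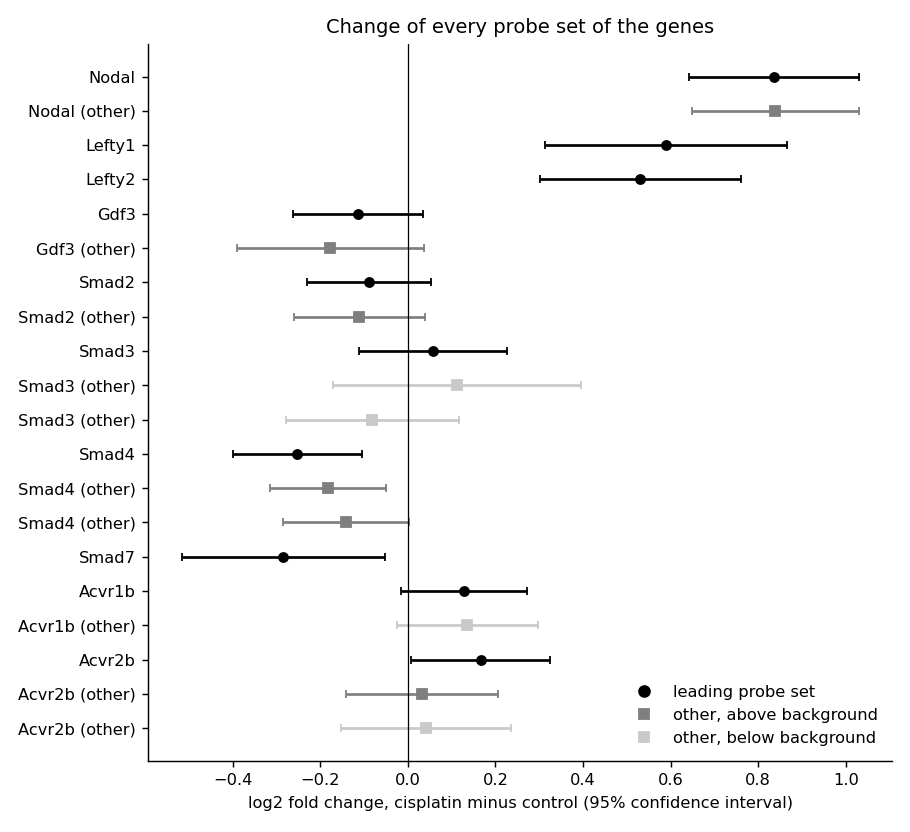
Log2 fold change (cisplatin minus control) of all 20 probe sets of the 10 genes, with 95% confidence intervals from limma over all 28898 probe sets. Black circles are the leading probe sets, dark grey squares other probe sets above background and light grey squares those below it. Both probe sets of Nodal lie at 0.84, and all 3 of Smad4 lie below 0.

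Several small changes depend on how the arrays are scaled. Subtracting from each array its own median, taken over all genes in the test, lowered every change by 0.13, which moved the median over all genes to -0.12. Nodal, Lefty1 and Lefty2 stayed higher and passed after centring, and Smad4 stayed lower. Gdf3, Smad2 and Smad7 then passed as lower, at -0.25, -0.22 and -0.41 (limma adjusted p = 0.0207, 0.0399 and 0.00918). Smad3 and Acvr1b turned to the negative side and did not pass.

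Beyond the 10 members, 48 other genes of the pathway were measured in 6 lists. Of these, 5 were higher, 7 lower and 36 did not pass, so that 25% were called, against 19.3% of all genes. After each array was centred on its median 4 were higher and 15 lower, and without cisplatin replicate 5 or cisplatin replicate 6 the counts were 3 higher and 5 lower. The median log2 fold change was -0.01, and 16 of the 48 genes lay below background in both groups.

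The secreted and membrane inhibitors had 3 of 5 genes higher and none lower (limma), against 11.6% and 7.69% of all genes. Their median log2 fold change was 0.22. The count of higher inhibitors was 1 without cisplatin replicate 5, cisplatin replicate 6 or control replicate 4. Fst, which encodes follistatin, an activin-binding protein, read 5.05, 4.93, 5.45 and 5.33 in cisplatin replicates 3 to 6, against 4.63, 4.60, 4.91 and 4.12 in the controls. The groups did not overlap, by a narrow margin, and the log2 fold change was 0.63 ± 0.17 (SE; adjusted p = 0.0248, limma). The call was lost without cisplatin replicate 5, cisplatin replicate 6 or control replicate 4, at adjusted p-values of 0.0709, 0.0669 and 0.0510. Fstl3, a follistatin relative, was higher by 0.40 ± 0.07 (adjusted p = 0.00291), at a low level of 4.02 with cisplatin and 3.62 in the controls. Dand5, a Nodal antagonist of the Cerberus family, was near background at 3.47 ± 0.08 with cisplatin and 3.24 ± 0.07 in the controls (SD, n = 4). Its change of 0.22 ± 0.06 (SE) had an adjusted p of 0.0321, but 0.0561 with the replicate block and 0.287 after centring. Only the fits that left out cisplatin replicate 4 or control replicate 3 kept this call, and leaving out any of the remaining 6 arrays ended it (highest adjusted p = 0.0837). Cer1 lay below background.

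Among 6 other receptors 1 was higher and 2 lower, against 11.6% and 7.69% of all genes, with a median of -0.00109. Acvr1, which encodes a type I receptor used by activins and bone morphogenetic proteins, read 5.46, 5.78, 5.85 and 5.47 in cisplatin replicates 3 to 6, against 6.22, 6.41, 6.55 and 6.03 in the controls. No treated array reached the controls, and Acvr1 fell by 0.66 ± 0.13 (SE) on the log2 scale (adjusted p = 0.00509, limma). The mean of its 3 probe sets, 1 of them below background, was at -0.26 (adjusted p = 0.0223). The other Acvr1 probe set above background gave -0.18 ± 0.08 and did not pass over all probe sets (limma adjusted p = 0.182). The type II receptor gene Acvr2a fell by 0.30 ± 0.07 (adjusted p = 0.0159). Tgfbr3, a TGF-beta co-receptor, was at 0.31 ± 0.07 (adjusted p = 0.00752) by its brightest probe set whereas its most variable probe set gave -0.13 (adjusted p = 0.554) and the mean of its probe sets 0.09 (adjusted p = 0.434). The direction thus turned with the choice of probe set, and the most variable one lay below background.

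Of 14 Smad partners and regulators 4 were lower and none higher (limma), against 11% and 16.6% of genes above background, where all 14 lay. Their median was -0.10, and 7 of the 14 had an unadjusted p under 0.05 (limma). After centring 9 were lower, and with dim genes left out or an intensity trend 1 was higher. Leaving out 1 array gave 3 lower genes without control replicate 4 and 2 without any other. Nedd4l, a ubiquitin ligase that targets activated Smad2 and Smad3, changed most. It read 6.21, 6.28, 6.02 and 5.92 in cisplatin replicates 3 to 6, against 7.19, 7.14, 7.01 and 6.99 in the controls. The groups were far apart, and the log2 fold change was -0.97 ± 0.09 (SE), or 1.96-fold lower (adjusted p = 8.48e-05). Its other 3 probe sets lay below background, and the mean of all 4 was at -0.21 (adjusted p = 0.0186). Trim33, a chromatin protein that binds Smad2 and Smad3, was at -0.37 ± 0.05 (adjusted p = 0.000892). It did not pass when the mean of its probe sets was used (adjusted p = 0.0606), and its other probe set lay below background. Zfyve9, the Smad anchor SARA, and the co-repressor Tgif1 passed narrowly, at -0.37 ± 0.11 and -0.16 ± 0.05 (adjusted p = 0.0485 for both), and neither passed with the replicate block (adjusted p = 0.0619 and 0.0578). Zfyve9 was at a low level, 3.70 with cisplatin and 4.07 in the controls. Its other probe set, close to background, gave -0.09 ± 0.08 (limma adjusted p = 0.521 over all probe sets). Leaving out any single array ended the call of Tgif1 (highest adjusted p = 0.123), and leaving out any array but control replicate 4 ended that of Zfyve9 (highest 0.119). Foxh1, the partner of Smads at many Nodal targets, was at 0.05 ± 0.07 (adjusted p = 0.742).

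In the mouse reference annotation the 7 lower genes of these lists span 9.33 kb (Tgif1) to 333.3 kb (Nedd4l), with a median of 120.4 kb. The 5 higher genes span 2.71 kb (Mesp2) to 183.1 kb (Tgfbr3), with a median of 6.73 kb. The 36 genes that did not pass have a median of 14.99 kb, and among them is the longest of the lists, Pcsk5 with 405.4 kb, at -0.19. Nodal spans 7.37 kb, Lefty1 3.38 kb and Lefty2 6.00 kb. Smad4, the lower member, spans 69.0 kb. Among the members that did not pass, Gdf3 spans 4.685 kb (log2 fold change -0.11) and Smad7 28.57 kb (-0.28). In the same group Smad2 spans 70.66 kb (-0.09), Smad3 111.2 kb (0.06), Acvr1b 39.61 kb (0.13) and Acvr2b 40.57 kb (0.17). The part of gene length in these changes was not tested.

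**Figure D4:**
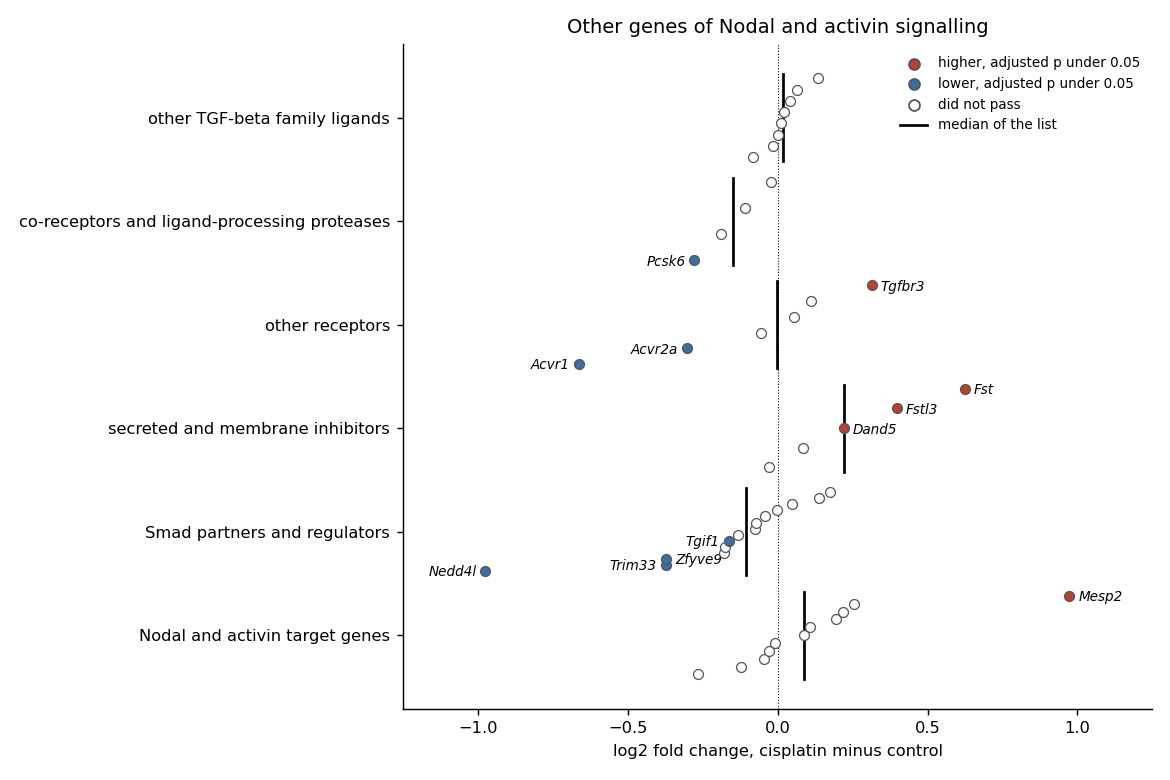
Log2 fold change (cisplatin minus control) of 48 other genes of the pathway in 6 lists. Each point is a gene, coloured red or blue where it was higher or lower at an adjusted p under 0.05 (limma), and the black bar is the median of the list. Nedd4l and Mesp2 lie farthest from 0, at -0.97 and 0.97.

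Among the other ligands none of 8 genes passed (limma; also 0 at an unadjusted p under 0.05), and 7 of the 8 lay below background. Inhba, the subunit gene of activin A, averaged 3.71 with cisplatin and 3.58 in the controls, and its change was 0.14 ± 0.17 (SE; adjusted p = 0.669). Inha, the inhibin alpha gene, was at 0.06 ± 0.06 (adjusted p = 0.561) below background. Of 4 co-receptors and ligand-processing proteases 1 was lower and none higher (limma), against 7.69% and 11.6% of all genes. The lower gene was Pcsk6, which encodes a protease that cleaves the Nodal precursor. It fell by 0.28 ± 0.06 on the log2 scale (adjusted p = 0.0140). The other 3 did not pass, and Tdgf1, a co-receptor gene of the same list, was not analysed here.

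Of 11 target genes known from the embryo, 1 was higher, none lower and 6 lay below background (limma). Over all genes 11.6% were higher and 7.69% lower. Mesp2, a mesoderm transcription factor, read 4.81, 5.49, 5.60 and 5.47 in cisplatin replicates 3 to 6, against 4.30, 4.57, 4.39 and 4.21 in the controls. The groups did not overlap, with treated replicate 3 nearest to the controls, and the log2 fold change was 0.97 ± 0.16 (SE; adjusted p = 0.00212). Its relative Mesp1 was at 0.26 ± 0.11 (adjusted p = 0.146), and passed with the replicate block (adjusted p = 0.0216), as did Ccn2 (0.22, adjusted p = 0.0237). The mesendoderm genes Eomes and Mixl1 were at -0.01 ± 0.13 and 0.20 ± 0.10 (adjusted p = 0.978 and 0.223), and Gsc, Foxa2 and Sox17 lay below background.

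Genes whose pattern over the 8 arrays was most like that of Nodal were sought among 11486 genes above background. The highest Pearson correlations were 0.997 for Jpt2 and 0.996 for both Smox, which encodes spermine oxidase, and Poglut2, an O-glucosyltransferase gene. Abhd4, a lipase gene, and Wdr35, a gene of cilium transport, followed at 0.995 each. Their log2 fold changes were 0.37, 1.13, 0.48, 1.18 and 1.13. Lefty1 had a correlation of 0.936 and was at place 620, and Lefty2 had 0.860 and was at place 1399. The arrays form 2 groups that differ in Nodal, so these values mostly rank how cleanly a gene separates the groups and are given as a description.

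Markers of the cells present were read beside these changes. Of the 12 ES cell markers 7 were lower and none higher (limma), against 11% and 16.6% of genes above background, where all 12 lay. Their mean was 10.77 ± 0.03 (SD, n = 4; arrays 10.74 to 10.82) with cisplatin and 10.99 ± 0.01 (10.98 to 11.00) in the controls. A two-sided exact permutation test gave p = 0.0286, and 0.0857 adjusted over the 3 marker lists. The first value is the smallest possible when the arrays are divided without regard to replicate number. The cells had been on feeders, and 3 of 15 fibroblast markers were higher and none lower, against 11.6% and 7.69% of all genes. Of the 15, 9 lay below background. Thy1, a surface protein gene, averaged 5.23 ± 0.23 with cisplatin and 4.62 ± 0.28 in the controls, and Mmp2, a matrix protease gene, averaged 5.93 ± 0.09 with cisplatin and 5.32 ± 0.14 in the controls (SD, n = 4; limma adjusted p = 0.0176 and 0.000605). The groups overlapped for neither. The other higher marker, Fbln2, lay below background. The mean of that list was 3.65 ± 0.14 (arrays 3.44 to 3.78) with cisplatin and 3.55 ± 0.08 (3.45 to 3.62) in the controls (exact p = 0.257, adjusted 0.386). The collagen genes Col1a1, Col1a2 and Col3a1, among the defining genes of fibroblasts, were at 3.37, 2.48 and 3.49 with cisplatin and at 3.46, 2.49 and 3.55 in the controls. Acta2, the brightest gene of that list, averaged 8.58 ± 0.35 with cisplatin and 8.43 ± 0.26 in the controls (SD, n = 4). It did not pass (limma adjusted p = 0.652). None of 8 primitive endoderm markers passed (limma; 1 had an unadjusted p under 0.05), at a mean of 4.44 ± 0.11 (4.27 to 4.53) with cisplatin and 4.42 ± 0.10 (4.27 to 4.51) in the controls (exact p = 0.657, adjusted 0.657). The part of these markers in the changes of Nodal, Lefty1 and Lefty2 was not tested.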

How the data were processed

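The table holds log2 expression per probe set, 1 column per array, as deposited by the authors; per the submitters' processing notes the values come from RMA, and the notes also name limma. No version or genome build is given in the sources used here. Per the labels' protocols, RNA was amplified from the 3′ end, so the arrays read mostly transcript ends. RMA equalises the arrays, which hides any change in the RNA content of a cell. The column medians ran from 3.35 to 3.38.

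Of 45141 probe sets, 28898 had 1 gene in the platform annotation, 551 had several, 15588 besides 104 controls had none listed, and only the first kind was tested. Symbols were updated by Entrez identifier through RefSeq's GRCm38.p6 table (16937 of 17098 genes). The groups come from the sample titles. Cisplatin was set against control with limma 3.58.1 in R 4.3.3 (lmFit and eBayes, no other term), once over 17098 genes, each by its leading probe set, and once over all probe sets, with Benjamini-Hochberg adjustment. No filter on dim genes was applied.

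Members and lists were chosen with earlier results of these data known. Of each pathway list the text names called genes (at most the 4 with the smallest p, or 2 genes where none passed); Foxh1, Cer1, Mesp1, Ccn2, Eomes, Mixl1, Gsc, Foxa2, Sox17, Pcsk5 and the fibroblast markers were named after their values were seen. Of 56 listed pathway genes, 8 were not analysed here. For the replicate block and the differences by number only, the numbers 3 to 6 were taken to pair the arrays, which the sources do not state. Deviations from the group mean correlated at 0.117 to 0.293 between arrays of the same number and at -0.246 to 0.117 between arrays of different numbers (genes above background). Marker means were compared by exact permutation over all 70 ways to divide the arrays, without regard to replicate number. In a simulation with 17098 genes limma recovered 94 of 100 changes of size 1 (log2) and 80 of 100 of size 0.5, with 17 false calls. Only those genes were changed, far fewer than were called in the data, and noise was drawn independently for each gene and array. The simulation thus does not give the share of false calls in these data. Alternatives covered the probe set, dim genes, normalization, centring, the test, the threshold, a replicate block and each array left out. Plots were made in matplotlib 3.10.9 (Python 3.11.15).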

Additional observations from a re-analysis of the deposited data

Results flagged for a closer look

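Among 25 genes named by the rule, the values of 4 groups of arrays held 1 array far from the other 3, by Dixon's criterion for 4 values. Chance flags about 1 in 20 groups, and 50 groups were examined. Smad2 read 8.02 in cisplatin replicate 5, while the other treated arrays lay at 8.18 to 8.19. Mesp2 read 4.81 in cisplatin replicate 3, against 5.47 to 5.60 on the other treated arrays. Tgfbr3 read 4.12 in control replicate 3, with the other controls at 4.02 to 4.03. Inha, below background, read 2.76 in control replicate 5, with the other controls at 2.65 to 2.66.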

How the results depend on the processing

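Nodal, Lefty1 and Lefty2 kept their direction and passed under all 18 alternatives, with log2 fold changes of 0.70 to 0.89, 0.46 to 0.66 and 0.40 to 0.59 and highest adjusted p-values of 0.00418, 0.0485 and 0.0325. Leaving out each array in turn gave 1580 to 1871 higher and 1037 to 1246 lower genes, with 3 members higher each time and 0 to 1 lower. Centring each array on its median gave 1087 higher and 3925 lower genes and 4 lower members, by the shift it applies. It turned Smad3 to -0.0723, Acvr1b to -0.00247 and Inha to -0.0661, none of them called. The most variable probe set turned Tgfbr3 to -0.13. An adjusted p under 0.01 left 1113 higher and 742 lower genes and 0 lower members. An intensity trend gave 2 lower members, and so did the replicate block, in both cases by adding Smad7 to Smad4. The replicate block changed no other call among the members, and over all genes it gave 2111 higher and 1336 lower. It ended the calls of Dand5, Tgif1 and Zfyve9 and added those of Mesp1 and Ccn2. The call of Tgif1 was also lost when each gene was read by its most variable probe set, and without probe sets that can match several transcripts. Its own log2 fold change was -0.16 in both fits, as in the main fit. With quantile normalization applied again that call was lost too, at -0.14. The calls of Fst and Zfyve9 were lost with an ordinary t statistic, and that of Dand5 with an intensity trend; the cause was not tested. The simulation covered changes of log2 0.5 and 1 only, so recovery of smaller ones was not tested; no depth is defined for arrays.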
